A study of Homo sapiens with 17 samples.

Results

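The genes described here are those whose symbols name SR proteins (SRSF and a number), hnRNP proteins (HNRNP), core proteins of the spliceosomal snRNPs (SNRP, SF3A, SF3B, U2AF and PRPF) and the kinases of SR proteins (CLK1 to CLK4, SRPK1 and SRPK2). The rule used symbols and no measured value. It found 79 of the 19141 genes counted, of which 12 were SR, 25 hnRNP, 36 core snRNP and 6 kinase genes. All but HNRNPCL2 and HNRNPCL4, which had almost no counts, passed the filter on low counts, which left 77 genes to be tested.

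The RNA came from YB5 cells, a line derived from the human colon cancer line SW48 that carries a single inserted GFP gene silenced behind a CMV promoter. All groups share this line and transgene. Cells received 250 nM toyocamycin, an adenosine analog that the study describes as an inhibitor of the transcription kinase CDK9, or its vehicle DMSO. Of the 17 libraries, 8 were from DMSO and 9 from toyocamycin. The arms held 2 libraries each at the 2 h time, 1 each at 24 and 48 h and 3 each at the last, 72 h, while for 10 h there were 1 of DMSO and 2 of toyocamycin. The last time is given as the labels have it, and the study's text names a later hour for it. The labels put the second replicates of 2 and 10 h (4 libraries) in batch 2 and the other 13 in batch 1.

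Library totals ran from 8735465 to 22121364 reads. Replicate 2 of the toyocamycin libraries at 10 h was the smallest. It stood apart from its replicate, with a correlation of log2 CPM of 0.916 where other replicate pairs had 0.982 to 0.996. The count table also holds a column named as replicate 1 of DMSO at 10 h, which matches no sample of the labels used here and was not used, so that 1 DMSO library stands for 10 h throughout. Replicate 2 is also the only toyocamycin library at 10 h from that library's batch, so for some genes values at 10 h are also given without 1 of the toyocamycin libraries. The 79 genes took 1.59 to 1.78% of the counts in DMSO at every time and 1.84 to 2.10% in toyocamycin at 72 h. The 100 genes with the most counts took 18.6 to 22.2% in DMSO and 31.4 to 37.4% in toyocamycin from 10 h on. Levels below are in CPM, a gene's counts over a library size scaled by TMM, and are relative to that scaling. They are not amounts per cell, since in bulk RNA fewer cells of a type and less RNA per cell cannot be told apart. The TMM factors at 72 h were 1.09 to 1.12 in DMSO and 0.73 to 0.75 in toyocamycin. Changes in CPM are thus not plain changes in a gene's share of the reads. A gene was called at an adjusted p under 0.1 (edgeR's quasi-likelihood test, Benjamini-Hochberg over all genes tested), and changes are log2 fold changes of toyocamycin against DMSO with their standard errors (SE).

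As background, the spliceosome removes introns through small nuclear RNAs bound by proteins. The Sm proteins encoded by several SNRP genes form the ring on most of these RNAs, the SF3A and SF3B complexes and the U2AF dimer act where the branch point and the 3′ splice site are recognised, and PRPF proteins serve the tri-snRNP and later steps. SR proteins bind exons and mostly favour their inclusion, while hnRNP proteins coat the transcript and often act the opposite way. SR proteins work only within a cycle of phosphorylation: the SRPK kinases act mainly in the cytoplasm and the CLK kinases in the nucleus. Many SR and hnRNP genes, and CLK1 and CLK4, also make transcripts with retained introns or poison exons, which gene counts do not tell apart from coding ones.

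The bases just before the start of 6 genes are printed because these genes carry the changes described next. They are the 100 bases upstream of the RefSeq gene start on GRCh38.p14, read 5′ to 3′ on the gene's strand. Capitals mark a GC box, spelled GGGCGG, on either strand. They also mark the CCAAT box in the same way. The TATA box was searched as TATAAA in both directions. The last of the marked motifs is that of the ETS factors, searched as CCGGAAG.
CLK1, chr2:200864659-200864758, minus strand: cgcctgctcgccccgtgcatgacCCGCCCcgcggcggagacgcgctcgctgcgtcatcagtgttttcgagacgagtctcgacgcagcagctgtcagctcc
CLK4, chr5:178627051-178627150, minus strand: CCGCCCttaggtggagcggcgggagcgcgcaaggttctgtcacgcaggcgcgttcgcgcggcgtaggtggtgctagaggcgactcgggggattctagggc
SRPK1, chr6:35921099-35921198, minus strand: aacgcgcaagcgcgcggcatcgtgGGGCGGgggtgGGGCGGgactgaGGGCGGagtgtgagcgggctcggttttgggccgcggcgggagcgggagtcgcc
SRSF3, chr6:36594262-36594361, plus strand: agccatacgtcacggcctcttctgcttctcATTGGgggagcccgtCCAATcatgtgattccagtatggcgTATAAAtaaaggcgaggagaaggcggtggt
HNRNPA0, chr5:137754364-137754463, minus strand: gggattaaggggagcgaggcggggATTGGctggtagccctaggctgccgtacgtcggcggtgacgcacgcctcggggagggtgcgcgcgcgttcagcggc
SF3B6, chr2:24076327-24076426, minus strand: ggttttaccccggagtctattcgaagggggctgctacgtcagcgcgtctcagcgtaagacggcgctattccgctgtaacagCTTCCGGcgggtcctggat
CLK1, CLK4 and SRPK1 hold GC boxes here, SRSF3 a pair of CCAAT boxes and a TATA box, HNRNPA0 a CCAAT box, and SF3B6 an ETS motif. GENCODE v44 draws CLK4 (chromosome 5, 178602664 to 178630615) and SRPK1 (chromosome 6, 35832966 to 35921342) with starts further upstream, and CLK1, SRSF3 and SF3B6 with starts inside the printed bases, so these bases are not upstream of every transcript.

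CLK4 fell the most of the 77 genes at 2 h and was far above DMSO at 72 h. At 2 h, 8.94% of all genes tested were called (0.518% higher and 8.42% lower). Of the 77, U2AF1 was called higher, CLK4 and CLK3 lower, and 74 were not called. Without the threshold on adjusted p, 7 were higher and 3 lower at an unadjusted p under 0.05. Of all 14491 genes tested, 347 were higher and 1830 lower at that threshold. CLK4, a nuclear kinase of SR proteins, had 7.19 and 6.73 CPM in DMSO and 2.40 and 1.84 CPM in toyocamycin at 2 h, from 171 and 131 against 58 and 34 reads. The arms did not overlap. The log2 fold change was -1.70 (SE 0.22, adjusted p = 0.000193). At 72 h CLK4 had 6.69, 7.38 and 9.18 CPM in DMSO and 55.4, 54.0 and 52.8 CPM in toyocamycin. Every treated library was then above every DMSO library, by 2.83 on the log2 scale (SE 0.16, adjusted p = 1.86e-10). The effect at 72 h minus that at 2 h was 4.53 (SE 0.27, adjusted p = 1.22e-09). Calls in opposite directions at 2 and 72 h nearly fix that this difference passes its test. In between, the toyocamycin libraries had 11.3 and 7.63 CPM at 10 h against 4.56 in DMSO (log2 fold change 1.07, SE 0.29, adjusted p = 0.00917), and 25.9 and 45.2 CPM at 24 and 48 h against 5.53 and 6.74.

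CLK1, the paralog of CLK4 in sequence and function, rose the most of the 77 genes at 72 h. It had 7.93, 10.1 and 12.8 CPM in DMSO and 344, 287 and 311 CPM in toyocamycin at 72 h. These groups lay far apart, with a log2 fold change of 4.96 (SE 0.19, adjusted p = 2.8e-12). The time course climbed through 63.7 CPM at 24 h and 164 CPM at 48 h, where DMSO had 8.45 and 8.47. At 2 h the arms were 15.8 and 18.2 CPM in DMSO against 12.6 and 9.97 in toyocamycin, without overlap. This difference was not called (-0.59, SE 0.21, adjusted p = 0.126), but it was in 3 of 17 alternative settings. Among these was the fit with the replicate number, which names the batch at 2 h, as a replicate block (-0.60, adjusted p = 0.00135). At 10 h the toyocamycin libraries disagreed, with 25.1 and 8.40 CPM against 8.77 in DMSO. The log2 fold change was 0.96 (SE 0.44) and not called, and it was -0.06 or 1.52 with 1 toyocamycin library left out. DMSO itself fell by 0.72 on the log2 scale from 2 to 72 h, a called change.

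CLK2 and CLK3 took a different course, with low values at 10 and 24 h and no call at 72 h. At 24 h, where no test was made, CLK2 had 6.05 CPM against 20.3 in DMSO, and CLK3 13.0 against 28.1. CLK2 had 19.4 CPM in DMSO and 2.50 and 3.65 CPM in toyocamycin at 10 h, a log2 fold change of -2.69 (SE 0.28, adjusted p = 4.2e-06). It had 12.9 CPM at 48 h, and at 72 h its 19.8, 22.4 and 24.5 CPM overlapped the DMSO values of 24.1, 24.4 and 25.7 (-0.12, SE 0.16, adjusted p = 0.491). CLK3 was called lower at 2 h, at 22.7 and 23.2 CPM against 38.7 and 28.5 in DMSO (-0.55, SE 0.17, adjusted p = 0.0674). Without replicate 1 of DMSO it was -0.31 with adjusted p = 0.401, while without either toyocamycin library the value stayed at -0.53 and -0.57 with adjusted p = 0.241 and 0.228. With the replicate block it was -0.55 (adjusted p = 0.000453). At 10 h CLK3 was at 10.4 and 15.1 CPM against 21.8 (-0.78, SE 0.25, adjusted p = 0.0222), and at 72 h at -0.15 (SE 0.14, adjusted p = 0.322). With library size alone as the scaling, CLK2 and CLK3 were lower at 72 h, at -0.72 and -0.75.

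The SRPK kinases fell and remained low. SRPK1 had 88.3, 83.5 and 103 CPM in DMSO and 20.4, 16.0 and 20.9 CPM in toyocamycin at 72 h. The log2 fold change was -2.22 (SE 0.18, adjusted p = 9.66e-09), with no overlap. It was already at 19.5 CPM at 24 h, where DMSO had 68.2. At 10 h its fall of -0.65 (SE 0.28, adjusted p = 0.0768) lost the call in 7 of 13 alternative settings. Among these was the fit without replicate 1 of toyocamycin (-0.44). SRPK2 had 43.9, 44.6 and 51.9 CPM in DMSO and 20.7, 16.1 and 16.9 CPM in toyocamycin at 72 h (-1.35, SE 0.16, adjusted p = 9.31e-07), and 49.4 against 25.0 and 23.9 CPM at 10 h (-1.01, SE 0.23, adjusted p = 0.00313). Exons of LHFPL5 on the other strand cover 28.1% of the exonic length of SRPK1, and the strand setting of the counting is not given in the sources used here. Of the 6 kinases, then, 2 rose, 2 fell and 2 were not called at 72 h, where 88.8% of all genes were called. The effects at 72 and 2 h differed by the test of the difference for the rising and the falling pair, but not for CLK2 or CLK3 (for CLK3, 0.40 with adjusted p = 0.108).

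**Figure D1:**
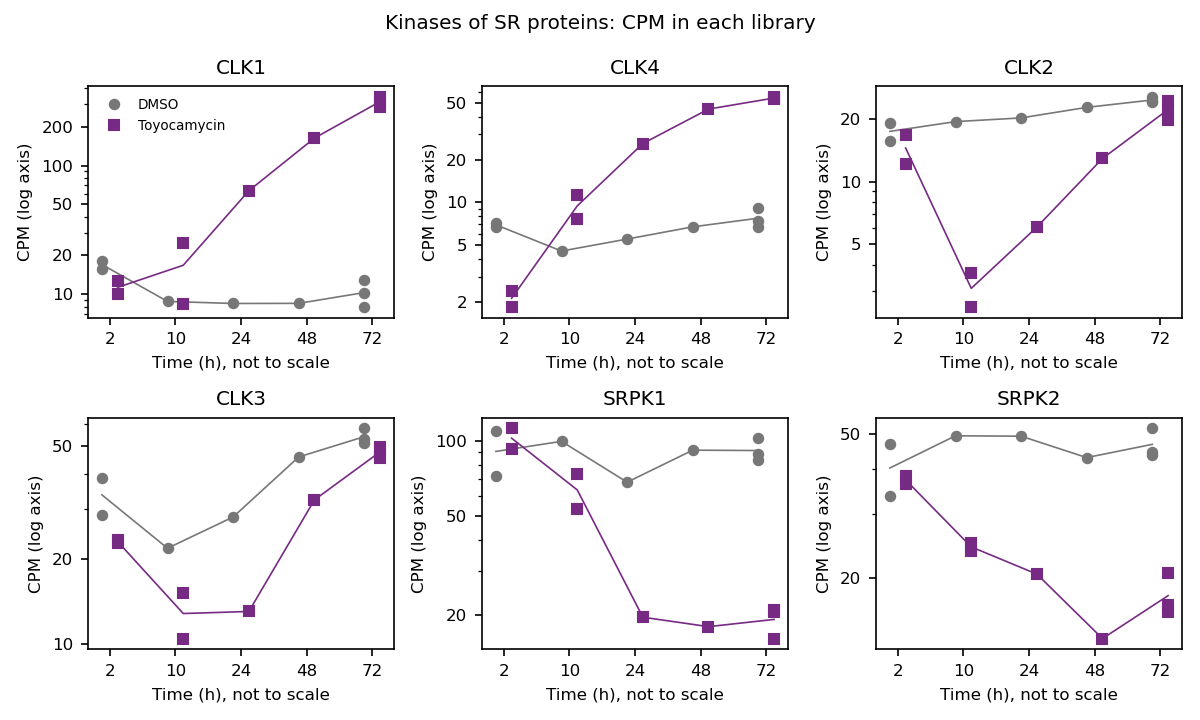
CPM of the 6 kinase genes in every library on a log axis, against time (not to scale), with points for libraries and lines through the means of each arm. CLK1 reaches 287 to 344 CPM and CLK4 52.8 to 55.4 CPM in toyocamycin at 72 h. CLK2 and CLK3 are low at 10 and 24 h, and SRPK1 and SRPK2 end below every DMSO library of 72 h.

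The SR genes were called in both directions at 10 h, as were all genes, and nearly all SR genes were higher at 72 h. None of the 12 was called at 2 h without the replicate block, and 4 of 11 were higher with it. In the fit without it, 11 had a positive log2 fold change, as had 7687 of all 14491 genes tested. At an unadjusted p under 0.05, 1 SR gene was higher, as were 347 of all genes. The median of the SR genes was 0.18 where all genes had 0.02. At 10 h, where 44.8% of all genes were called (20.4% higher and 24.4% lower), 3 SR genes were higher, 3 lower and 6 not called, with a median of -0.07 against 0.42 for all genes. At 72 h, where 88.8% of all genes were called (47% higher and 41.9% lower), 11 of 12 were higher and 1 lower, with a median of 1.93 against 0.18 for all genes. A call at 72 h was thus the rule among all genes.

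Apart from SRSF12, whose few reads give only a bound, SRSF8 and SRSF11 had the largest rises of the SR genes at 72 h, each 2.66. SRSF8, encoded by a retrotransposed copy of SRSF2, had 66.6, 65.0 and 62.8 CPM in DMSO and 419, 424 and 363 CPM in toyocamycin (SE 0.12). It was already higher at 10 h, at 53.5 CPM in DMSO against 180 and 103 CPM at 10 h (1.40, SE 0.29, adjusted p = 0.00152). Its highest value came at 24 h, with 794 CPM against 63.4, and reads could be split with SRSF2. SRSF11 had 67.3, 69.4 and 82.1 CPM in DMSO and 494, 414 and 447 CPM in toyocamycin (SE 0.14). Neither gene's arms overlapped.

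The classical SR proteins that regulate exon choice rose as well. SRSF6 had 43.1, 41.7 and 58.7 CPM in DMSO and 274, 251 and 236 CPM in toyocamycin at 72 h (2.44, SE 0.15). SRSF1, which promotes exon inclusion and is a known oncogene, had 50.0, 43.4 and 68.8 against 265, 204 and 193 CPM (2.06, SE 0.22), and 32.7% of its exonic length is shared with another annotated gene on the same strand. SRSF3, one of the SR proteins that shuttle out of the nucleus with mRNA, had 250, 251 and 306 against 1080, 950 and 926 CPM (1.90, SE 0.15). In each of these genes every treated library exceeded every DMSO library. SRSF5 (131, 138 and 172 against 604, 520 and 518 CPM) and SRSF7 (133, 136 and 151 against 560, 488 and 516 CPM) both rose by 1.93, with SE 0.14 and 0.12, and SRSF10 by 1.83 (SE 0.15). SRSF2 rose less, from 66.9, 57.7 and 86.0 to 151, 115 and 131 CPM (0.94, SE 0.15), and MFSD11 on the other strand covers 27.7% of its exons.

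SRSF4 and SRSF9 stood apart at 72 h. SRSF4 had 156, 152 and 158 CPM in DMSO and 194, 183 and 179 CPM in toyocamycin, a rise of 0.29 (SE 0.12, adjusted p = 0.0289) that is not called in the fit of all 17 libraries (0.26, adjusted p = 0.239) and turns negative with library size alone (-0.31). SRSF9 was the SR gene that fell, from 199, 183 and 139 to 118, 106 and 120 CPM (-0.57, SE 0.16, adjusted p = 0.0042). With DESeq2's size factors its fall was -0.24 and not called (adjusted p = 0.176), and GATC on the other strand covers 43.6% of its exons. SRSF12 was at the floor in DMSO, with 2, 0 and 0 reads at 72 h against 9, 1 and 9 in toyocamycin. With a floor of 3 reads per DMSO library, the mean level in toyocamycin was at least 4.22-fold higher. The arms overlapped, since 1 toyocamycin library had 1 read and 1 DMSO library had 2. The median of the SR genes stays at 1.93 with SRSF12 at that bound.

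At 10 h the SR genes that were lower were among those that later rose. SRSF5 had 60.7 CPM in DMSO and 38.7 and 25.1 CPM in toyocamycin (-0.92, SE 0.27, adjusted p = 0.0144). The DMSO library of 10 h was itself low for this gene, since the other DMSO libraries had 131 to 235 CPM. SRSF6 had 56.5 against 29.8 and 30.0 CPM (-0.92, SE 0.24, adjusted p = 0.00627), and SRSF11 94.9 against 73.4 and 41.0 CPM (-0.73, SE 0.28, adjusted p = 0.0555, lost without replicate 2 of toyocamycin at -0.36 and adjusted p = 0.207). SRSF9 was higher, at 285 and 143 CPM against 110 (0.96, SE 0.36, adjusted p = 0.0452), and SRSF2 at 119 and 73.1 CPM against 60.1 (0.68, adjusted p = 0.0895). Without replicate 1 of toyocamycin neither was called (0.38 with adjusted p = 0.243, and 0.28 with adjusted p = 0.367). The other 6, SRSF1, SRSF3, SRSF4, SRSF7, SRSF10 and SRSF12, were not called. With 1 toyocamycin library left out, SRSF3 ran from -0.68 to -0.06, SRSF4 from -1.17 to -0.19 and SRSF7 from -0.47 to 0.67.

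**Figure D2:**
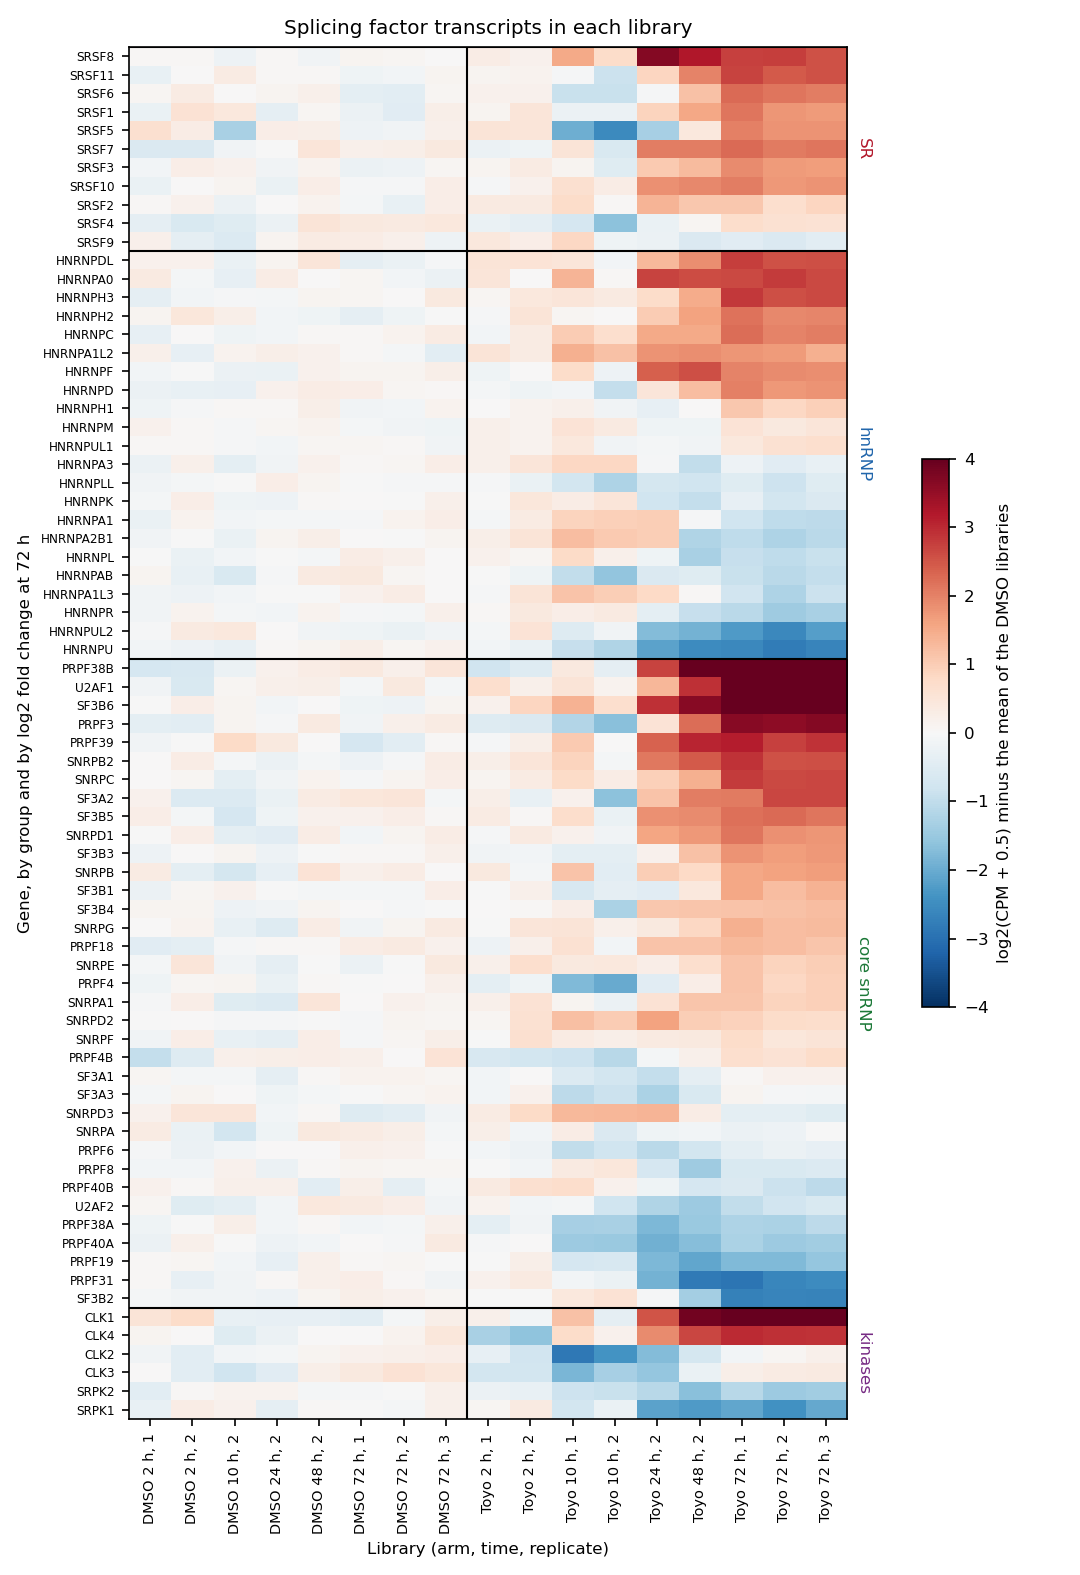
Log2(CPM + 0.5) of the splicing genes in each library minus the mean of the DMSO libraries, by group, with the colour scale ending at 4 in each direction. SRSF12, HNRNPCL1 and U2AF1L4, which had few counts, are left out with the 2 untested genes. The rise of most SR genes, of CLK1 and CLK4, and of PRPF38B, SF3B6 and PRPF3 fills in from 24 h on.

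The hnRNP genes were called in both directions in nearly equal numbers at 72 h, as were all genes (47% higher and 41.9% lower). At 2 h none of the 23 tested was called without the replicate block, and their median was 0.17. At an unadjusted p under 0.05, 3 were higher and 0 lower, where 347 and 1830 of all 14491 genes tested were. With the block 7 of 22 were higher. At 10 h 9 were higher, 4 lower and 10 not called, with a median of 0.51, beside 20.4 and 24.4% of all genes. At 72 h 12 were higher and 11 lower, so that every tested member was called, with a median of 0.59.

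HNRNPDL, HNRNPA0 and HNRNPH3 rose the most. HNRNPDL, which binds AU-rich RNA and is a paralog of HNRNPD, had 108, 115 and 136 CPM in DMSO and 944, 809 and 840 CPM in toyocamycin at 72 h (2.88, SE 0.13). HNRNPA0, an intronless gene whose protein binds AU-rich elements, had 456, 405 and 364 against 2709, 3009 and 2710 CPM (2.81, SE 0.17). HNRNPH3 had 102, 97.3 and 126 against 695, 584 and 603 CPM (2.56, SE 0.15). None of these arms overlapped. HNRNPA0 was at 2825 CPM by 24 h, where DMSO had 533. At 10 h its toyocamycin libraries, 1118 and 444 CPM against 343, differed from each other by more than the second differed from DMSO.

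HNRNPU, HNRNPUL2 and HNRNPR fell the most. HNRNPU, a nuclear matrix protein that binds chromatin and nascent RNA, had 1028, 916 and 977 CPM in DMSO and 146, 124 and 138 CPM in toyocamycin at 72 h (-2.81, SE 0.13). It was at 461 and 380 CPM against 707 at 10 h and at 198 against 902 at 24 h, so that the treated libraries were lower at each of these times. COX20 on the other strand covers 15.6% of its exons. Its paralog HNRNPUL2 had 43.1, 40.1 and 44.2 against 9.73, 7.69 and 10.3 CPM (-2.17, SE 0.19), and 44.3% of its exonic length lies in a read-through gene with BSCL2. HNRNPR had 310, 303 and 368 against 152, 120 and 132 CPM (-1.25, SE 0.14).

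HNRNPA1 and HNRNPA2B1, whose proteins are among the most abundant of the family and repress exons, rose first and then fell. HNRNPA2B1 had 863 CPM in DMSO and 2428 and 2144 CPM in toyocamycin at 10 h (1.40, SE 0.24). It had 2055 against 1121 CPM at 24 h and 453 against 1223 CPM at 48 h. At 72 h it had 519, 440 and 496 CPM against 1044, 1018 and 1122 in DMSO, a log2 fold change of -1.10, and the change of the effect from 10 h was -2.54. HNRNPA1 had 1467 against 2916 and 3034 CPM at 10 h (1.02, SE 0.27), and 1524, 1716 and 1901 against 893, 768 and 755 CPM at 72 h (-1.06, SE 0.16). It is not among the genes named by rank and was chosen after its values were seen. With scaling on the mitochondrially encoded genes, neither HNRNPA1 (-0.13) nor HNRNPA2B1 (0.28) was called at 10 h. HNRNPA1L2 and HNRNPA1L3, near-identical copies of HNRNPA1, were also among the largest rises at 10 h (1.21 and 1.22) and then parted, at 1.88 and -1.15 at 72 h, but reads could be split between copies and these values are uncertain. HNRNPLL, a regulator of alternative splicing best known from lymphocytes, fell at 10 h from 32.9 to 19.9 and 13.8 CPM (-0.95), with HNRNPUL2 and HNRNPU next (-0.76 and -0.75).

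The other hnRNP genes that rose at 72 h were HNRNPC, HNRNPH2, HNRNPF, HNRNPD, HNRNPA1L2, HNRNPH1, HNRNPM, HNRNPUL1 and HNRNPCL1, from 0.59 to 2.24, of which HNRNPCL1 had 1 to 9 reads in any library. The others that fell were HNRNPA3, HNRNPLL, HNRNPK, HNRNPA1, HNRNPA2B1, HNRNPL, HNRNPAB and HNRNPA1L3, from -0.42 to -1.15. HNRNPA3 shares 53.6% of its exonic length with NFE2L2 on the other strand.

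**Figure D3:**
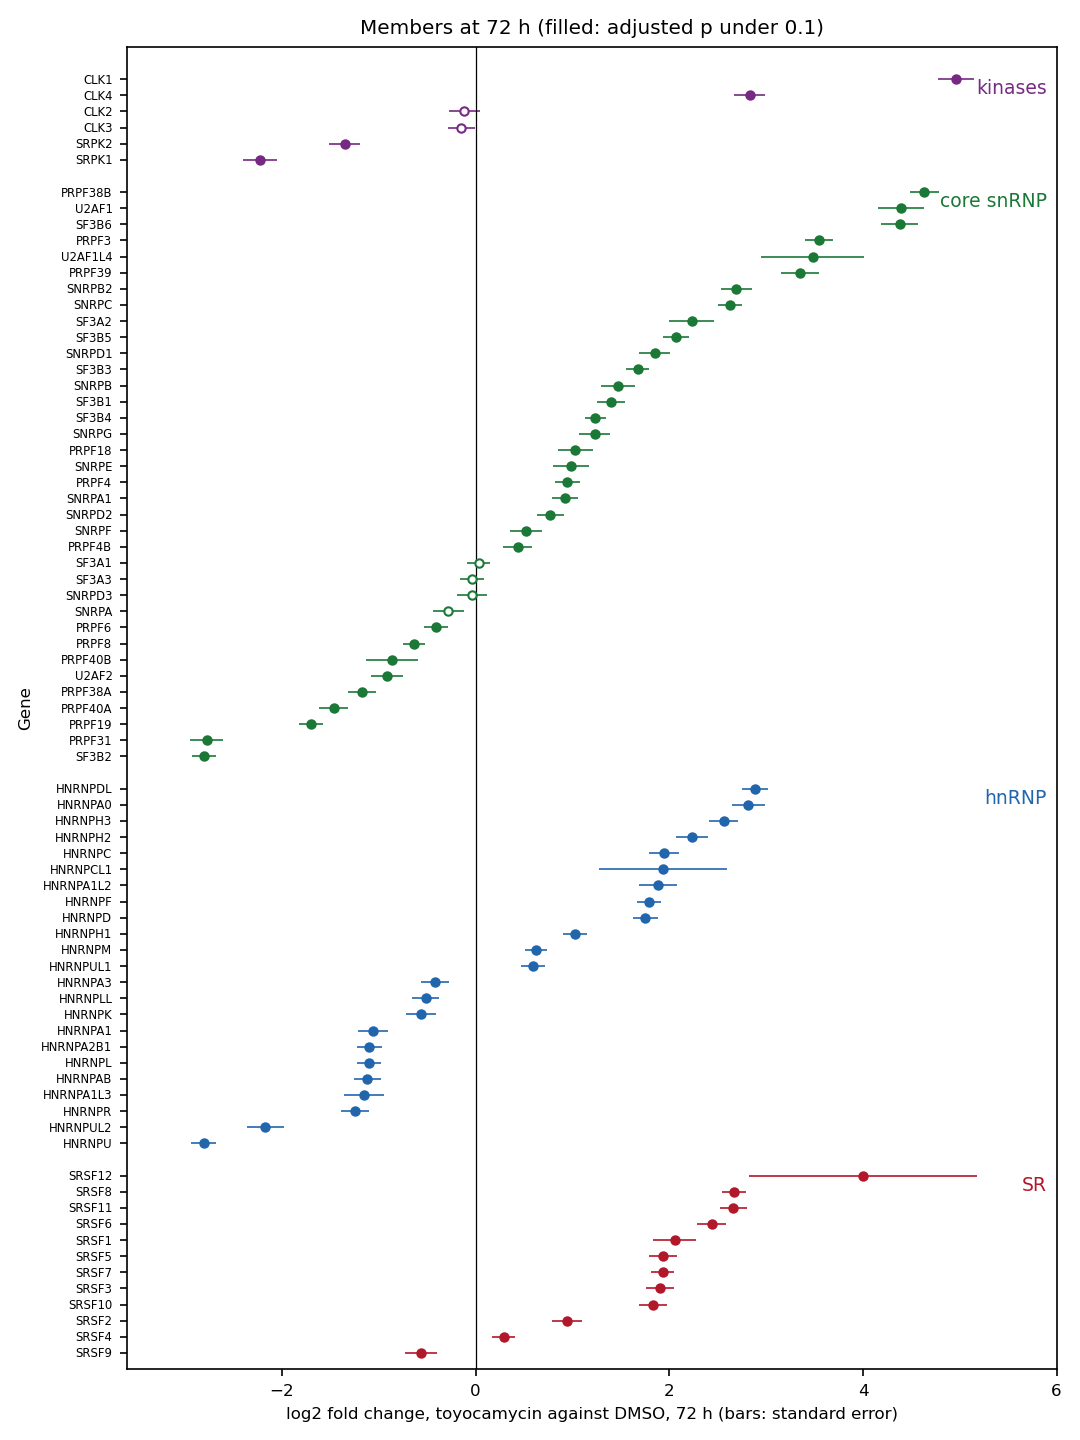
Log2 fold change of toyocamycin against DMSO at 72 h for the tested splicing genes by group, with bars of 1 SE and filled points for an adjusted p under 0.1. SR genes lie above 0 except SRSF9, hnRNP genes spread on both sides, and the kinases run from -2.22 (SRPK1) to 4.96 (CLK1).

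Among the core snRNP genes 9 of 11 SNRP genes and 6 of 9 SF3 genes were higher at 72 h, while the PRPF genes were split. At 2 h 1 of 36 was higher and none lower (median 0.11). At 10 h 8 were higher, 11 lower and 17 not called (median 0.31), where 20.4% of all genes were higher and 24.4% lower. At 72 h 23 were higher, 9 lower and 4 not called (median 0.96), where 47% of all genes were higher and 41.9% lower. The 72 h counts were made up of 9 higher and 0 lower of 11 SNRP genes, 6 and 1 of 9 SF3 genes, 2 and 1 of 3 U2AF genes, and 6 and 7 of 13 PRPF genes.

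The SNRP genes encode the Sm ring and the proteins particular to single snRNPs. At 10 h 5 of 11 were already higher and none was lower, where 20.4% of all genes were higher and 24.4% lower. SNRPD2, of the Sm ring, had 128 CPM in DMSO and 310 and 272 CPM in toyocamycin at 10 h (1.19, SE 0.25). SNRPB had 105 against 378 and 128 CPM (1.27, SE 0.47, adjusted p = 0.0441), a value that rests on replicate 1 (0.28 without it, adjusted p = 0.421). At 72 h the 9 higher genes ran from 0.52 in SNRPF to 2.63 in SNRPC and 2.69 in SNRPB2, of the U1 and U2 snRNPs. SNRPD3 (-0.04) and SNRPA (-0.28) were not called.

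The SF3 complexes belong to the U2 snRNP and clamp the branch point. SF3B6, the subunit that touches the branch point adenosine, had 28.7, 28.1 and 35.2 CPM in DMSO and 693, 592 and 587 CPM in toyocamycin at 72 h (4.38, SE 0.19). No treated library came near a DMSO library. SF3B2, a scaffold subunit of the same complex, fell from 542, 516 and 482 to 70.6, 72.7 and 72.0 CPM (-2.81, SE 0.12). It had been higher at 10 h, at 621 and 691 CPM against 416 (0.66, SE 0.21), was at 445 against 404 at 24 h and at 178 against 495 at 48 h, and the effect differed between 72 and 10 h by -3.49 (SE 0.28). Subunits of a single complex thus moved in opposite directions. SF3A2, SF3B5, SF3B3, SF3B1 and SF3B4 rose by 1.24 to 2.23, while SF3A1 (0.03) and SF3A3 (-0.04) were not called. SF3B5 was also among the largest rises at 10 h, at 131 and 66.4 CPM against 50.0 (0.98), but not without replicate 1 (0.41, adjusted p = 0.147).

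U2AF1, the subunit that reads the AG of the 3′ splice site, had 1.34, 2.04 and 1.33 CPM in DMSO and 35.7, 30.3 and 31.5 CPM in toyocamycin at 72 h (4.40, SE 0.24). At 2 h it had 1.26 and 0.771 against 2.61 and 1.73 CPM (1.09, SE 0.33, adjusted p = 0.0678), which was lost without replicate 2 of DMSO (0.80, adjusted p = 0.338) or replicate 1 of toyocamycin (0.74, adjusted p = 0.444). Its reads can be shared with the near-identical copy U2AF1L5, so the low level and both changes are uncertain. U2AF2, its partner that binds the polypyrimidine tract, fell by 0.92 on the log2 scale at 72 h. U2AF1L4 had 3 to 23 reads a library.

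PRPF38B, a little-studied paralog of PRPF38A, had the second-largest rise of the 77 genes at 72 h, from 43.9, 38.9 and 47.7 CPM in DMSO to 1154, 1007 and 1003 CPM (4.63, SE 0.15). It had 222 CPM at 24 h and 585 CPM at 48 h, where DMSO had 38.0 and 41.3. PRPF31 and PRPF19 fell: PRPF31, a tri-snRNP protein mutated in retinitis pigmentosa, from 71.8, 62.0 and 53.5 to 7.47, 9.27 and 9.91 CPM (-2.78, SE 0.17), and PRPF19, a ubiquitin ligase of the spliceosome, from 246, 249 and 233 to 68.7, 69.4 and 81.6 CPM (-1.70, SE 0.13). The arms did not overlap in any of the 3. At 10 h the largest falls were of the U4/U6 protein PRPF4, from 103 to 27.6 and 23.1 CPM (-2.02, SE 0.22), of PRPF38A from 60.6 to 20.2 and 20.6 CPM (-1.57), and of PRPF3, the binding partner of PRPF4, from 22.0 to 8.71 and 5.97 CPM (-1.56, SE 0.25). At 10 h 7 of the 13 PRPF genes were lower and none higher, where 24.4% of all genes were lower and 20.4% higher. PRPF38A was still lower at 72 h (-1.17).

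PRPF3 and PRPF4 then turned. PRPF3 had 29.6 against 19.7 CPM at 24 h, 96.2 against 25.8 at 48 h, and 260, 246 and 262 against 18.2, 23.5 and 25.3 CPM at 72 h (3.55, SE 0.14), and the effect at 72 h minus that at 10 h was 5.08 (SE 0.30). PRPF4 had 211, 170 and 185 CPM against 94.3, 96.0 and 110 at 72 h (0.95). Across the 77 genes 8 were lower at 10 h and higher at 72 h (PRPF3, PRPF4, PRPF4B, SF3B1, SF3B3, SRSF5, SRSF6 and SRSF11), and 7 were higher and then lower (HNRNPA1, HNRNPA1L3, HNRNPA2B1, HNRNPA3, HNRNPL, SF3B2 and SRSF9). SF3B1, SF3B3, PRPF4B, HNRNPA3 and HNRNPL were named after their values were seen. The choice of these 15 genes by opposite calls nearly fixes that their effects at 72 and 10 h differ, so nothing is read from a test of that difference in them. Of all genes 24.4% were lower and 20.4% higher at 10 h, and 47% were higher and 41.9% lower at 72 h. The share of all genes that turned was not counted, so turning is not shown to be particular to the splicing genes. Over all 77 genes the effect was higher at 72 than at 10 h for 37 and lower for 19, where 52% of all genes were called (25.4% higher and 26.6% lower). The numbers depend on the scaling and on the libraries of 10 h. With DESeq2's size factors 6 and 6 genes turned, of which 5 and 5 were shared, and with library size alone 12 and 4, of which 7 and 4 were shared. With scaling on the mitochondrially encoded genes 5 were lower and then higher, of which 4 were shared. Under that scaling 0 were higher and then lower. Without replicate 1 of toyocamycin at 10 h the numbers were 15 and 6, of which 8 and 5 were shared, and without replicate 2 they were 7 and 7, all shared.

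**Figure D4:**
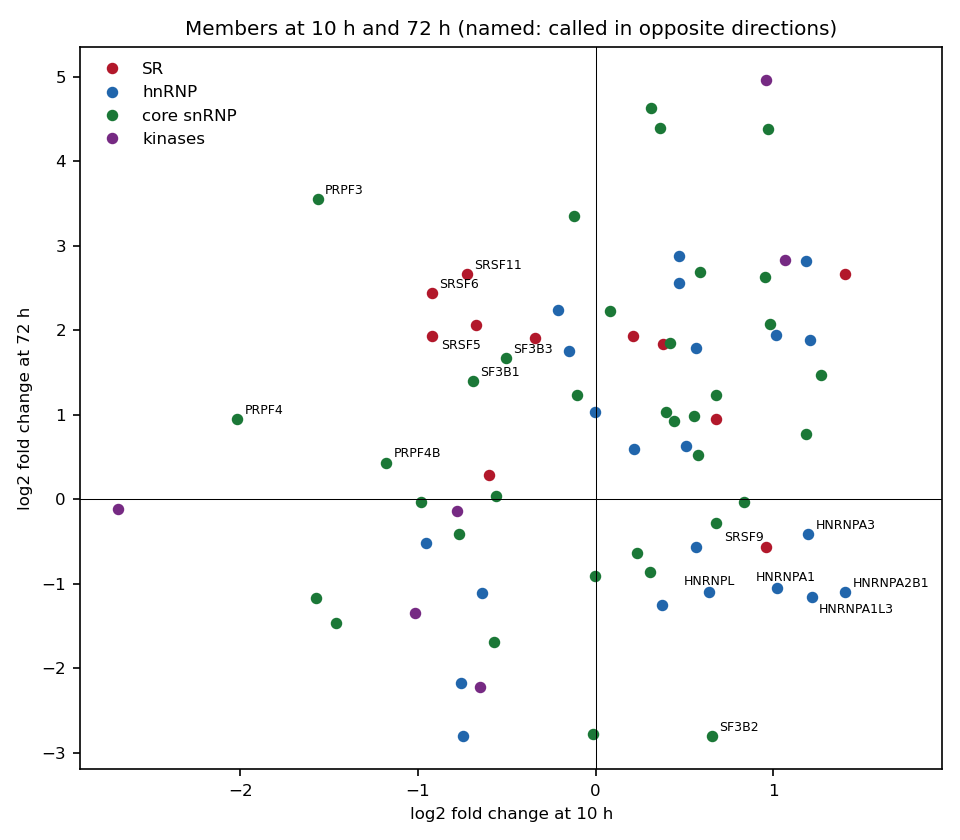
Log2 fold change of toyocamycin against DMSO at 72 h (y axis) against that at 10 h (x axis) for each tested gene, coloured by group, with names on the 15 genes called in opposite directions. PRPF3 lies at -1.56 and 3.55, and HNRNPA2B1 at 1.40 and -1.10. SRSF12, HNRNPCL1 and U2AF1L4 are left out for few counts.

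Across time the 4 groups parted. The median log2 CPM of the SR genes, as a difference from the mean of the DMSO libraries, was 0.11 and 0.22 in the toyocamycin libraries of 2 h, 0.32 and -0.36 at 10 h, 0.88 at 24 h, 1.22 at 48 h, and 2.11, 1.76 and 1.79 at 72 h. The core snRNP genes reached 1.14, 0.90 and 0.99 at 72 h, the hnRNP genes 0.43, 0.40 and 0.48, and the kinases 0.07, 0.20 and 0.28 after a low of -1.34 at 24 h. At 24 h, where each arm had 1 library and no test was made, 30 of the 77 were past 2-fold higher and 14 past 2-fold lower, when 49.2% of all genes were past 2-fold (25.2% higher and 24% lower). At 48 h these were 31 and 16, when 61.9% of all genes were (35.6% higher and 26.3% lower). The SR genes had 6 higher and 1 lower at 24 h, and 7 and 0 at 48 h.

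**Figure D5:**
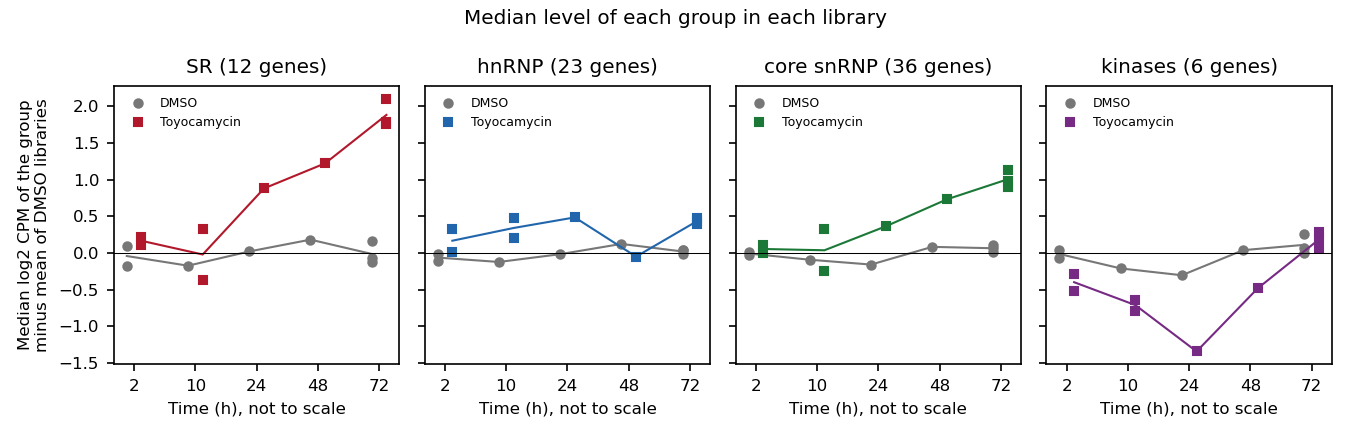
Median over the genes of each group of log2 CPM minus the mean of the DMSO libraries, in every library, against time (not to scale). The SR genes end highest, at 1.76 to 2.11 in toyocamycin at 72 h, and the kinases pass through -1.34 at 24 h.

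Over all 77 genes, 21 were higher, 22 lower and 34 not called at 10 h, and 48 higher, 23 lower and 6 not called at 72 h. Of all genes 20.4% were higher and 24.4% lower at 10 h, and 47% and 41.9% at 72 h. Without replicate 2 of toyocamycin at 10 h the counts there were 34 higher and 20 lower, and without replicate 1 they were 17 and 28. Their medians were 0.36 at 10 h, beside 0.42 for all genes, and 0.98 at 72 h, beside 0.18. Scaling moved these numbers, because it moved the median of all genes at 72 h to 0.50 with DESeq2's size factors, -0.42 with library size alone and -0.89 when libraries were scaled on the mitochondrially encoded genes. Under these scalings 51, 42 and 27 genes were higher and 18, 30 and 29 lower at 72 h. The SR genes were 11 and 0, 10 and 2, and 9 and 1, with medians of 2.25, 1.33 and 0.88. The medians were 0.91, -0.01 and -0.51 for the hnRNP genes, 1.29, 0.36 and -0.08 for the core snRNP genes, and 0.19, -0.73 and -1.21 for the kinases. Since a scaling shifts all genes nearly alike, these signs follow the scaling, and the gap to the median of all genes hardly moved. That gap was 1.75 to 1.77 for SR genes, 0.79 to 0.81 for core snRNP genes, 0.38 to 0.42 for hnRNP genes and -0.32 to -0.31 for kinases over the 4 scalings.

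At 10 h, the same scalings gave 34, 9 and 0 genes higher and 14, 28 and 24 lower. Within batch 2, replicate 2 of toyocamycin against the DMSO library of 10 h gave a median over the 77 genes of -0.02, where replicate 1, across batches, gave 0.50. Of the 77, 64 had the same sign in both. The medians within batch 2 and across batches were -0.57 and 0.23 for SR genes, 0.37 and 0.52 for hnRNP genes, -0.05 and 0.52 for core snRNP genes, and -0.47 and -0.93 for kinases. The medians of the SR and core groups at 10 h thus differed in sign between the libraries. Most of their genes did not, since 11 of 12 SR and 28 of 36 core genes had the same sign in both.

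At 2 h the replicate number names the batch, so the libraries pair. With this block, 15 of the 74 genes tested were higher and 3 lower, where 27.4% of all genes in that fit were called (8.72% higher and 18.7% lower). The higher genes were SRSF2, SRSF7, SRSF9 and SRSF11 (0.25 to 0.41), HNRNPA1L2, HNRNPA1L3, HNRNPA2B1, HNRNPA3, HNRNPDL, HNRNPH3 and HNRNPL (0.26 to 0.49), and PRPF31, SF3B6, SNRPD2 and U2AF1 (0.33 to 1.07). The lower genes were CLK4 (-1.72, adjusted p = 7.34e-10), CLK3 (-0.55, adjusted p = 0.000453) and CLK1 (-0.60, adjusted p = 0.00135). Every SR, hnRNP and core gene called in this fit was thus higher, and every kinase called was lower.

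Time in culture without drug was examined as a background. Between DMSO at 72 and 2 h, 9 were higher and 6 lower, when 21.6% of all genes were called (10.2% higher and 11.4% lower). The higher genes were PRPF18, PRPF3, PRPF38B, PRPF4B, HNRNPD, CLK2, CLK3, SRSF4 and SRSF7 (0.41 to 1.04), and the lower ones SNRPD3, HNRNPDL, HNRNPH2, CLK1, SRSF5 and SRSF6 (-0.39 to -0.72). The number of lower calls was 1 without replicate 2 of DMSO at 2 h, 2 without replicate 1 or replicate 2 of DMSO at 72 h, and 1 in the fit of all 17 libraries. Without replicate 2 of DMSO at 2 h the higher calls numbered 5. This comparison shares libraries with those at 2 and 72 h. The effect at 72 h minus that at 2 h passed the test for 41 genes upwards and 23 downwards, when 76.1% of all genes did (38% higher and 38.1% lower). By group these were 9 and 1 SR, 11 and 11 hnRNP, 19 and 9 core snRNP, and 2 and 2 kinase genes.

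The line's colon markers moved with time and drug. The summed level of 11 markers of colon epithelium was 1761 to 6939 CPM in DMSO and 532 to 564 CPM in toyocamycin at 72 h, where DMSO had 5996 to 6939 and 7 of 9 tested markers were lower and 2 higher. CDX1, KRT20 and LGALS4 were at or near 0 in DMSO. Earlier the sum of the colon markers was higher in toyocamycin, at 4367 to 5150 CPM against 1761 in DMSO at 10 h. Of 10 tested markers 8 were higher and 0 lower at that time. The sum was 4309 against 2075 CPM in DMSO at 24 h, and 1522 against 2983 CPM at 48 h. A list of 9 fibroblast, endothelial and leukocyte genes summed to 1.07 to 1.83 CPM in DMSO and 53.8 to 80.8 CPM in toyocamycin at 72 h, of which CD79A made up 50.0 to 65.3 CPM, and 6 of 7 were higher. At 10 h that list summed to 4.30 CPM in DMSO and 4.07 and 29.6 CPM in toyocamycin. The part of these markers in the changes of the splicing genes was not tested.

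Gene length was set beside direction as a description. On GENCODE v44, the median gene length of the members called at 72 h was 13189 bases for those higher and 23923 bases for those lower, and at 10 h 12379 and 37360 bases. Over all genes the medians of those called higher and lower were 26277 and 39423 bases at 72 h, and 24689 and 44748 bases at 10 h. Longer genes among those lower were thus not particular to the members. Spearman's rho between gene length and log2 fold change was -0.06, -0.38 and -0.37 over the 77 genes at 2, 10 and 72 h, and -0.09, -0.06 and -0.14 over all genes, as a description across genes that share libraries and are not independent replicates. Within the core snRNP genes it was -0.55 at 10 h.

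Promoters were searched for 8 motifs on both strands, from 250 bases before to 50 bases after the RefSeq start, in the 70 of 79 genes with an entry. The ETS motif CCGGAAG was in 16 of 30 core snRNP promoters (53.3%), 2 of 11 SR, 3 of 23 hnRNP and 0 of 6 kinase promoters, and in 14.5% of 14966 promoters in all. CCAAT was in 15 of 23 hnRNP promoters (65.2%) where all had 36.5%, and the E box CACGTG in 7 of 23 (30.4%) where all had 8.87%. By direction at 72 h, CCAAT was in 13 of 42 promoters of genes that were higher (31.0%) and in 13 of 20 of those that were lower (65%), and ETS in 15 of 42 (35.7%) and 4 of 20 (20%). The GC box was in 42 of the 70 promoters (60%) and the TATA box in 6 (8.57%), where all promoters had 59.9% and 9.31%. Among the 11589 promoters of genes tested at 72 h, ETS was in 17.2%, CCAAT in 36.3%, the GC box in 67.6% and the TATA box in 6.60%. These matches describe letters in a window and not sites.

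Other splicing genes, from lists chosen by function, are set beside these. Of 48 other snRNP and spliceosome proteins, 0 were higher and 5 lower at 2 h, 5 and 25 at 10 h, and 25 and 14 at 72 h. Of the SR-related and other regulators, 1 and 1 of 37 were called at 2 h, 3 and 17 of 38 at 10 h, and 23 and 8 at 72 h. The genes for Sm ring assembly had 0 and 2 of 13, 1 and 6 of 14, and 7 and 5, those of the exon junction complex 0 and 0 of 6, 1 and 2, and 4 and 2, and the other kinases 0 and 0 of 3, 0 and 1, and 3 and 0. Over all genes the shares higher and lower were 0.518 and 8.42% at 2 h, 20.4 and 24.4% at 10 h, and 47 and 41.9% at 72 h. At 2 h PNN, a nuclear speckle protein, rose by 1.09 (SE 0.16), and DDX20, the helicase of the SMN complex, had -1.87 (SE 0.17), GEMIN4 -0.81, BUD13 -0.96, CWC22 -0.94 and SON -0.55. SRPK3 had a low level at 24 h, 0.41 CPM in toyocamycin and 0.43 CPM in DMSO, and was higher at 72 h (4.02). At 72 h RBM39 (4.06), TRA2A (3.19), SYF2 (2.84), BUD31 (2.63) and DYRK1A (2.03) were also higher. SNRNP25 of the minor spliceosome (-3.94), EFTUD2 of U5 (-3.43), the epithelial splicing regulators ESRP2 (-3.53) and ESRP1 (-2.52), and WDR77 (-2.84) and PRMT5 (-1.21), which methylate Sm proteins, were lower. SMN1 (2.24) and SMN2 (2.89) are near-identical copies whose values are uncertain. Of the exon junction complex, RBM8A (1.47) and MAGOHB (1.33) were higher and EIF4A3 (-1.82) and CASC3 (-0.97) lower.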

How the data were processed

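Polyadenylated RNA of 17 YB5 libraries was sequenced. Per the labels and the study's methods, the authors aligned reads to GRCh38 with STAR 2.7.5a and deposited raw gene counts, with no normalization. 1 column of the count table, named as DMSO at 10 h, matched no sample used here and was left out. A deposited table of the authors' edgeR comparisons, which holds log2 fold changes and p-values, was not used.

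Genes were filtered with filterByExpr, scaled with TMM and tested with edgeR 4.0.16 (quasi-likelihood in the older form, R 4.3.3), adjusted by Benjamini-Hochberg over all genes and called at an adjusted p under 0.1. A fit of 14 libraries without 10 h (14491 genes) served 2 and 72 h, the change in DMSO and the contrast of 72 with 2 h. A fit of all 17 (16521 genes) gave those at 10 h and between 72 and 10 h. At 24 and 48 h log2 CPM differences with a prior count of 2 were taken, with no test. SE is the log2 fold change over the square root of F. The labels call the replicates biological without saying what separated them, so p-values measure the spread between these samples. Of 19141 gene IDs, 19080 matched a symbol of GENCODE v44, which also gave lengths and overlaps. Promoters were from RefSeq on GRCh38.p14. Floors of 3 counts cover counting error only. The tests were checked on simulated data.

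Named were all kinases and tested SRSF genes, the 3 called hnRNP and 3 called core genes that rose and fell the most at 2, 10 and 72 h, and the 2 other splicing genes of each list that rose and fell the most at 2 and 72 h. Members and lists were chosen with earlier results of these data known. The pairing check gave a correlation of deviations of 0.307 at 2 h, where the labels tie the number to the batch, and -0.105, 0.0427 and -0.0876 at 72 h. Alternatives were DESeq2 1.42.0 (size factors, Wald test), other scalings, filters, thresholds and library sets, a batch term, a replicate block and leaving out each library. The comparison of 72 with 10 h, the values within batch 2 and the settings for genes that turned were chosen after seeing the data.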

Additional observations from a re-analysis of the deposited data

Results flagged for a closer look

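The effect of toyocamycin differed between 72 and 2 h for 41 splicing genes upwards and 23 downwards, by the test of the difference in edgeR's quasi-likelihood fit. Between 72 and 10 h it differed for 37 genes upwards and 19 downwards. CLK4 was lower than DMSO at 2 h and higher at 72 h, and the difference of the effects was 4.53. It was flagged by these opposite calls, which nearly fix that the effects differ, so nothing further is read from that test.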

How the results depend on the processing

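Of 421 alternative values for the 25 genes named at 2 h, 378 kept direction and call, 33 lost the call, 10 gained one and 0 reversed. Of 389 for the 30 named at 10 h these were 312, 47, 25 and 5, and of 908 for the 48 named at 72 h 892, 9, 4 and 3. Scaling on the mitochondrially encoded genes reversed CLK4 at 10 h (-0.0261), SF3B5 at 10 h (-0.0553), SRSF2 at 10 h (-0.39), 72 h (-0.0891) and between 72 and 2 h (-0.23), SRSF4 at 72 h (-0.79), SRSF9 at 10 h (-0.0752), and the DMSO changes of HNRNPDL (0.27), SRSF5 (0.0626) and SRSF6 (0.265). Library size alone reversed SRSF4 at 72 h (-0.31) and between 72 and 2 h (-0.42), and SRSF7 at 10 h was -0.47 without replicate 1 of toyocamycin and 0.67 without replicate 2. Apart from the scaling itself, the causes were not tested.

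Counts of genes called moved as follows. The DESeq2 Wald test gave 38 higher at 10 h, 5 higher at 2 h and 14 higher in DMSO over time. DESeq2's size factors gave 34 higher and 14 lower at 10 h, and 2 and 1 at 2 h. An adjusted p under 0.05 gave 0 and 1 at 2 h and 3 lower in DMSO, and all 17 libraries gave 0 and 1 at 2 h and 1 lower in DMSO. At least 10 counts gave 34 higher at 10 h and 3 higher at 2 h, a batch term 1 lower at 2 h, library size alone 9 higher at 10 h, and edgeR 4's own form 2 higher at 2 h. A minimum fold of 1.5 gave 10 and 10 at 10 h, 0 and 1 at 2 h, and 2 and 0 in DMSO, and only the libraries compared gave 9 and 7 at 10 h and 0 and 1 at 2 h. Mitochondrial scaling gave 0 higher at 10 h, 0 and 0 at 2 h, 27 higher at 72 h, 2 and 0 in DMSO, 22 and 6 between 72 and 10 h, and 16 higher between 72 and 2 h.

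Leaving out 1 library gave 17 to 34 higher and 20 to 28 lower at 10 h, 0 to 4 and 1 to 2 at 2 h, 48 to 48 and 23 to 24 at 72 h, 5 to 12 and 1 to 6 in DMSO, 36 to 44 and 16 to 20 between 72 and 10 h, and 40 to 46 and 21 to 23 between 72 and 2 h. The replicate block gave 15 higher at 2 h, where the number pairs the libraries. At 72 h the numbers share only a name, and the block gave 46 higher and 23 lower. Leaving out the only DMSO library of 10 h was not run, nor was a block at 10 h, where the arms share 1 number. That single library limits what 10 h can show.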
